A study of Homo sapiens with 2 samples.

Results

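The proteasome genes of PLC-8024 cells were examined in RNA-seq data from 1 library of PLC-8024-CTR cells (genotype control) and 1 library of PLC-8024-GDF1 cells (GDF1 overexpression). PLC-8024 is a hepatocellular carcinoma (HCC) cell line, and PLC-8024-GDF1 cells carry lentivirus-delivered human GDF1, a secreted ligand of the TGF-β superfamily, after puromycin selection. The sources used here do not give the promoter that drove GDF1, or whether the stable cells were a pool or a clone. Members were the rows of the deposited tables whose symbol is PSMA, PSMB, PSMC, PSMD, PSME, PSMF or PSMG followed by a number. This gave 48 genes of 58174, and 46 of the 48 had at least 1 TPM (a transcript abundance scaled to transcript length and to a fixed total per library) in either library. The log2 change of a gene is the log2 of its TPM + 1 in PLC-8024-GDF1 divided by its TPM + 1 in PLC-8024-CTR. Where a plain ratio or fold is written, nothing was added to the TPM. Since neither condition was replicated, no p-value is given and a difference describes these 2 libraries only. A gene is said to have risen or fallen where its log2 change passed 1.5-fold.

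The proteasome degrades ubiquitin-tagged proteins. Its barrel, the 20S core, is built of alpha rings that gate the entrance and beta rings that carry the proteolytic sites, and the 19S cap that docks on it recognises, unfolds and feeds in the substrate. The base of the cap holds the ring of ATPases that unfold substrates, and the lid holds the enzyme that removes ubiquitin chains. In cells exposed to interferon, the beta subunits PSMB8 (β5i), PSMB9 (β1i) and PSMB10 (β2i) are incorporated into new cores in place of the constitutive catalytic subunits PSMB5 (β5), PSMB6 (β1) and PSMB7 (β2). The resulting immunoproteasome cuts proteins into peptides suited to HLA class I presentation. PSME1 and PSME2 form the PA28 activator, which is also induced by interferon.

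Because the immunoproteasome and PA28 genes are known interferon targets, their promoters are shown with that of PSMD12, the member that fell most. The windows run from 250 bases before to 50 bases after the RefSeq gene start on GRCh38.p14, in the direction of the gene, and 42 of the 48 members matched that table. The entries not matched were PSMA7, PSMB1, PSMB6, PSMB7, PSMD4 and PSMG3. Both strands were searched for 3 motifs chosen after the values were seen: the core of the interferon-stimulated response element (ISRE) as GAAANNGAA, a STAT site as TTCNNNGAA and the core of the antioxidant response element, through which NFE2L1 and NFE2L2 act, as TGACNNNGC. Capitals mark every match to any of the 3, and no matches to different motifs overlapped in the member promoters. The window of PSMB8 lies at chr6:32843998-32844297 (minus strand), PSMB9 at chr6:32853942-32854241 (plus strand) and PSMB10 at chr16:67936801-67937100 (minus strand). That of PSME1 lies at chr14:24135944-24136243 (plus strand), PSME2 at chr14:24146561-24146860 (minus strand) and PSMD12 at chr17:67366528-67366827 (minus strand).
PSMB8: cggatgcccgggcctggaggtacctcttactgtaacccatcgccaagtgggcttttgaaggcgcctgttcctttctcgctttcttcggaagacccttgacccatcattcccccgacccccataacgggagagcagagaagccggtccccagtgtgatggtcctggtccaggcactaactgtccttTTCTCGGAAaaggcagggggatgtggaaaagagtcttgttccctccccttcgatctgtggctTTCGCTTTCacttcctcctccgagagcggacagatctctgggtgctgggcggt
PSMB9: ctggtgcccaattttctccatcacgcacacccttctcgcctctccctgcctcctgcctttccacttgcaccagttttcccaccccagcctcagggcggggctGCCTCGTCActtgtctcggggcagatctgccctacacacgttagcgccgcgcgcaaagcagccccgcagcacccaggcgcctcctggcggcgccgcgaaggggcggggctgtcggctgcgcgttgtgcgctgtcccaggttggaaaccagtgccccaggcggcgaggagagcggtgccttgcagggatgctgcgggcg
PSMB10: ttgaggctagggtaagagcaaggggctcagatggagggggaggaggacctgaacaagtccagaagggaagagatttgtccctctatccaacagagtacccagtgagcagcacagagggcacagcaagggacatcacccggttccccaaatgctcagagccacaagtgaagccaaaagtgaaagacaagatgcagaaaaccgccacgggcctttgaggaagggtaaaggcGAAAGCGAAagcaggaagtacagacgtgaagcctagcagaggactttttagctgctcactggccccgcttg
PSME1: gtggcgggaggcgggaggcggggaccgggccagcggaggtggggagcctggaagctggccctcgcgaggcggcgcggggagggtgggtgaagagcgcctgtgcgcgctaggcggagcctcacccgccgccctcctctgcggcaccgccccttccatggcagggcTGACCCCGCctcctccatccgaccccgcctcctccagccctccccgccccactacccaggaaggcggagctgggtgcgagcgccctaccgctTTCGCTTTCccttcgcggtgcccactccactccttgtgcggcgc
PSME2: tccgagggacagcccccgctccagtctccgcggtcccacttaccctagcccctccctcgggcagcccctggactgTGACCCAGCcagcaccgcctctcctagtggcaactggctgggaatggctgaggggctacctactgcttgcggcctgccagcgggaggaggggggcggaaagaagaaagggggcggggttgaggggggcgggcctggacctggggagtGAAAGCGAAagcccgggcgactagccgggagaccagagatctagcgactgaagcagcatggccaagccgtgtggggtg
PSMD12: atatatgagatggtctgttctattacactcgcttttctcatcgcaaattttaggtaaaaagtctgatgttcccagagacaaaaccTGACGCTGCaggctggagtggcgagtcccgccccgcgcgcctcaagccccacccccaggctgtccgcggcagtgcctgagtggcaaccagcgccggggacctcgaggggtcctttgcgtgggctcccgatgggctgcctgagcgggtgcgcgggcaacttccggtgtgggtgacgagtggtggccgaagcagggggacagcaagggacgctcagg

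Of the 42 members with a window, 8 held the ISRE core (19.05%), against 9.86% of the 27305 genes in the promoter table. These were PSMA4, PSMB4, PSMB8, PSMB10, PSMC2, PSME1, PSME2 and PSMG4. In 5 of them, PSMB8, PSMB10, PSME1, PSME2 and PSMG4, the match on the motif strand had the same letters, GAAAGCGAA. These letters were held by 5 of the 42 members with a window and by 0.33% of all genes in the table. They were read off the members' own matches, so this comparison is a description and no test. The match began 21 bases before the gene start in PSMB10, 28 before it in PSME2 and 3 before it in PSMB8, and lay just after it in PSME1 (position 7). The window of PSMB9 held no ISRE core match, and neither did a further RefSeq window of PSMB8 at chr6:32844630-32844929. The antioxidant response element core was found in 15 of the 42 members (35.7%) against 16.1% of all genes, and the STAT site in 8 of them (19.05%) against 9.38%. A match is a description of the letters and does not show that a factor binds there.

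Library-wide values give the setting. TPM is scaled to the same total in each library (999990 and 999995 here), so the depth is unknown and no counting error is given. Genes with at least 1 TPM numbered 14138 in PLC-8024-CTR and 13658 in PLC-8024-GDF1, and 14929 had at least 1 TPM in either. Their median log2 change was -0.20. In bulk RNA, fewer cells expressing a gene and less RNA per cell cannot be told apart. The overexpressed gene was listed at 2.096 and 4.64 TPM, while CERS1, whose exons on GRCh37 contain the GDF1 coding sequence, was listed at 13.3 and 9612 TPM. All 12 hepatocyte and liver tumour markers were listed above 1 TPM in at least 1 library (ALB at 14.98 and 6.07 TPM, KRT18 at 1005 and 1224 TPM). Of the 12, 9 fell past 1.5-fold, against 25.3% of all genes. AFP was among those that fell (31.4 and 9.75 TPM), and only KRT8 and KRT18 lay above 0. Of the markers of other cells, PTPRC, COL1A2, DCN and VWF were at 0.0001 TPM, the value that stands for 0, in both libraries. The leukocyte list summed to 332 and 229 TPM, nearly all from LYZ and CD68, the fibroblast and stellate list to 0.58 and 1.36 TPM, and the endothelial list to 23.5 and 22.4 TPM, nearly all from PECAM1.

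The 46 members moved, as a whole, about as much as other genes. The log2 change was above 0 for 16 members (34.8%, against 36.7% of all 14929 genes) and below 0 for 30 (65.2%, against 63.3%). Past 1.5-fold, 4 rose (8.70%, against 11.5% of all genes) and 10 fell (21.7%, against 25.3%). Past 2-fold, 1 rose (2.17%, against 4.82%) and 2 fell (4.35%, against 9.61%). These shares lay near or under those over all genes, so the counts over all members are no result about the proteasome as a whole. The median log2 change of the members was -0.17, against -0.20 for all genes. To express changes relative to other genes, the TPM of PLC-8024-GDF1 was also rescaled by 1.15 (0.21 on the log2 scale), which sets the median of genes with at least 5 TPM to 0. After rescaling the median of the members was 0.041, with 24 above 0 and 22 below it, against 49.2% and 50.8% of all genes. Summed over members, the share of the library total was 0.734% in the control and 0.697% with GDF1. Across the 46 genes, the log2 TPM values of the 2 libraries had a Pearson r of 0.95 (Spearman's rho 0.96, across genes, which share both libraries and are not replicates). The genes differed by subcomplex, as the plot of log2 change by subcomplex shows.

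All 3 immunoproteasome subunits were higher in PLC-8024-GDF1 cells (36.7% of all genes were), with a median log2 change of 0.87 (1.07 after rescaling). PSMB8 (ENSG00000204264, chromosome 6 of GRCh37, 32808494 to 32812456) had 7.91 TPM in control cells and 22.01 TPM in GDF1 cells, a 2.78-fold plain ratio and a log2 change of 1.37. It was the member with the largest rise and the only member to rise past 2-fold. PSMB9 (ENSG00000240065, chromosome 6, 32811913 to 32827628) was listed at 13.9 and 26.2 TPM, a 1.88-fold ratio and a log2 change of 0.87. PSMB10 (ENSG00000205220, chromosome 16, 67968409 to 67970767) was listed at 42.8 and 51.5 TPM, a log2 change of 0.26 that did not pass 1.5-fold. Thus the subunit with the lowest level in PLC-8024-CTR had the largest change. The range of levels among the 3 narrowed from 5.41-fold to 2.34-fold, while the order PSMB10, PSMB9, PSMB8 was the same in both libraries. PSMB8 and PSMB9 overlap by 544 bases on opposite strands, and strand-aware counting is not stated, so reads from the shared stretch cannot be told apart. The same holds for PSMB9 and TAP1, which overlap on opposite strands (TAP1 at 16.8 and 19.7 TPM). In all, 17 members overlap a gene with at least 1 TPM on the other strand. PSMB10 overlaps AC040162.1 on the same strand (4.998 and 7.45 TPM), and with it added the log2 change of PSMB10 was 0.30.

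The constitutive counterparts did not share this rise. PSMB5, which carries the chymotrypsin-like site, was listed at 237 and 211 TPM. PSMB6, with the caspase-like site, was listed at 274 and 253 TPM, and PSMB7, with the trypsin-like site, at 407.5 and 400.4 TPM. Their log2 changes lay between -0.17 and -0.025, and after rescaling they lay just above 0 (median 0.091). All 3 stayed well above their immunoproteasome counterparts in both libraries.

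Since TPM is per length, the level of each immunoproteasome subunit can be set against its constitutive counterpart. PSMB8 stood at 3.33% of the PSMB5 level in PLC-8024-CTR and at 10.4% in PLC-8024-GDF1, a change of the ratio of 3.12-fold (1.53 on the log2 scale with 1 added to each TPM). PSMB9 stood at 5.08% of PSMB6 and then at 10.4%, a 2.04-fold change (log2 0.98). PSMB10 stood at 10.5% of PSMB7 and then at 12.9%, a 1.23-fold change (log2 0.29, and -0.026 with the trend of the changes on transcript GC content removed). In PLC-8024-GDF1 the 3 ratios were therefore closer to each other than in PLC-8024-CTR. Added up, the immunoproteasome subunits held 6.57% of the summed TPM of the 6 catalytic subunits in control cells (64.6 of 983) and 10.3% in GDF1 cells (99.7 of 964). The mRNA of catalytic subunits thus remained mostly constitutive in both libraries. These are mRNA levels and not the composition of assembled proteasomes.

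The activators differed among themselves. PSME2, the PA28 beta subunit (ENSG00000100911, chromosome 14 of GRCh37, 24612571 to 24616779), rose from 102 to 159.8 TPM (log2 change 0.65). PSME1, the PA28 alpha subunit, which lies 4394 bases away from it, was listed at 109.7 and 122 TPM, a log2 change of 0.15 within 1.5-fold. The ratio of PSME2 to PSME1 was 0.93 in PLC-8024-CTR and 1.31 in PLC-8024-GDF1. PSME3, the nuclear PA28 gamma subunit, was listed at 21.0 and 16.7 TPM, a log2 change of -0.32. PSME4, which encodes the PA200 activator, fell from 6.28 to 2.96 TPM (log2 change -0.88), and had the lowest level of the 46 members with at least 1 TPM in both libraries. The interferon-inducible pair therefore lay above 0 and the other pair below it, also after rescaling. PSMF1, the proteasome inhibitor PI31, was listed at 29.4 and 37.2 TPM, a log2 change of 0.33.

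The members whose promoter window held the ISRE core were mostly those with positive changes. Of the 8, 7 had a log2 change above 0 and 1 (PSMA4) below it, with a median of 0.19. The count above 0 was also 7 after rescaling, and 8 with the GC trend removed. Of the 7, PSMC2 lay below 0 (-0.06) with the overlapping PMPCB added. Over all 14929 genes, 36.7% lay above 0 (49.2% after rescaling). The changes of all other genes with the core were not examined. PSMB8, PSMB10, PSME1 and PSME2 are among the known interferon targets named above. Of the 32 other members with a window and at least 1 TPM, 7 lay above 0 and 25 below it, with a median of -0.30 (12 above 0 after rescaling and 14 with the GC trend removed). Most of the 8 changes were small, since only PSMB8 and PSME2 passed 1.5-fold. PSMG4, with the same GAAAGCGAA letters as PSMB8, was listed at 67.1 and 68.9 TPM, and PSMB9 rose without a match. For the antioxidant response element core, 6 of 15 members with a match lay above 0 (median -0.16), against 8 of 25 without one (median -0.27). For the STAT site, 1 of 7 with a match, PSMB8, lay above 0 (median -0.32), against 13 of 33 without one (median -0.16). After rescaling these counts were 8 of 15 and 11 of 25 for the former motif and 2 of 7 and 17 of 33 for the latter. The motifs were picked with the changes known, so these counts are a description and no test.

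The constitutive 20S core was divided between its rings. All 7 alpha subunits were lower in PLC-8024-GDF1 cells (6 of 7 after rescaling, where PSMA6 lay above 0). Their median log2 change was -0.50, and their summed level was 1595 TPM in control cells and 1229.9 TPM in GDF1 cells. The 7 constitutive beta subunits were divided, with 2 above 0 and 5 below it (6 and 1 after rescaling), a median of -0.12 and summed levels of 2764 and 2784 TPM. With the GC trend removed, 5 alpha subunits lay below 0 and 2 above it, while all 7 beta subunits lay above it. Of all genes, 63.3% lay below 0 (50.8% after rescaling, and 50.1% of protein-coding genes with the GC trend removed). On the deposited scale no beta subunit passed 1.5-fold in either direction. The median GC content of the transcripts was 39.7% for the alpha ring and 49.8% for the beta ring.

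Among the alpha subunits, PSMA5 fell from 167 to 102 TPM (log2 change -0.70), PSMA2 from 83.6 to 51.6 TPM (-0.69) and PSMA1 from 76.5 to 48.0 TPM (-0.66). PSMA3 was listed at 146 and 103 TPM (-0.50), PSMA4 at 229 and 182 TPM (-0.33) and PSMA7 at 689.6 and 559 TPM (-0.30). PSMA6 had the smallest change, at 203 and 184 TPM (-0.14). The alpha subunits with the lowest levels in PLC-8024-CTR, PSMA1 and PSMA2, were among the 3 that fell. PSMA2 shares its strand and span with AC010132.3 (18.5 and 23.0 TPM), and with it added the log2 change of PSMA2 was -0.45. PSMA6 likewise overlaps AL121594.3 (0.53 and 7.41 TPM), and with it added the change of PSMA6 was -0.08.

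Among the structural beta subunits, PSMB4 was listed at 669.8 and 763 TPM and PSMB3 at 586 and 638 TPM, with log2 changes of 0.19 and 0.12. PSMB1 was listed at 489 and 436 TPM (-0.17) and PSMB2 at 99.9 and 82.9 TPM (-0.27). The highest member overall was PSMA7 in PLC-8024-CTR and PSMB4 in PLC-8024-GDF1. Levels of the 14 core genes, whose proteins are equally numerous in the assembled core, spanned 9.01-fold in PLC-8024-CTR and 15.9-fold in PLC-8024-GDF1. The SD of their log2 TPM was 1.09 and 1.32. Of the 2 tissue-restricted core subunits, PSMA8, known from the testis, was at 0.0001 TPM in both libraries, and PSMB11, known from the thymus, was at 0.0001 and 0.091 TPM. These were the 2 members under 1 TPM.

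**Figure D1:**
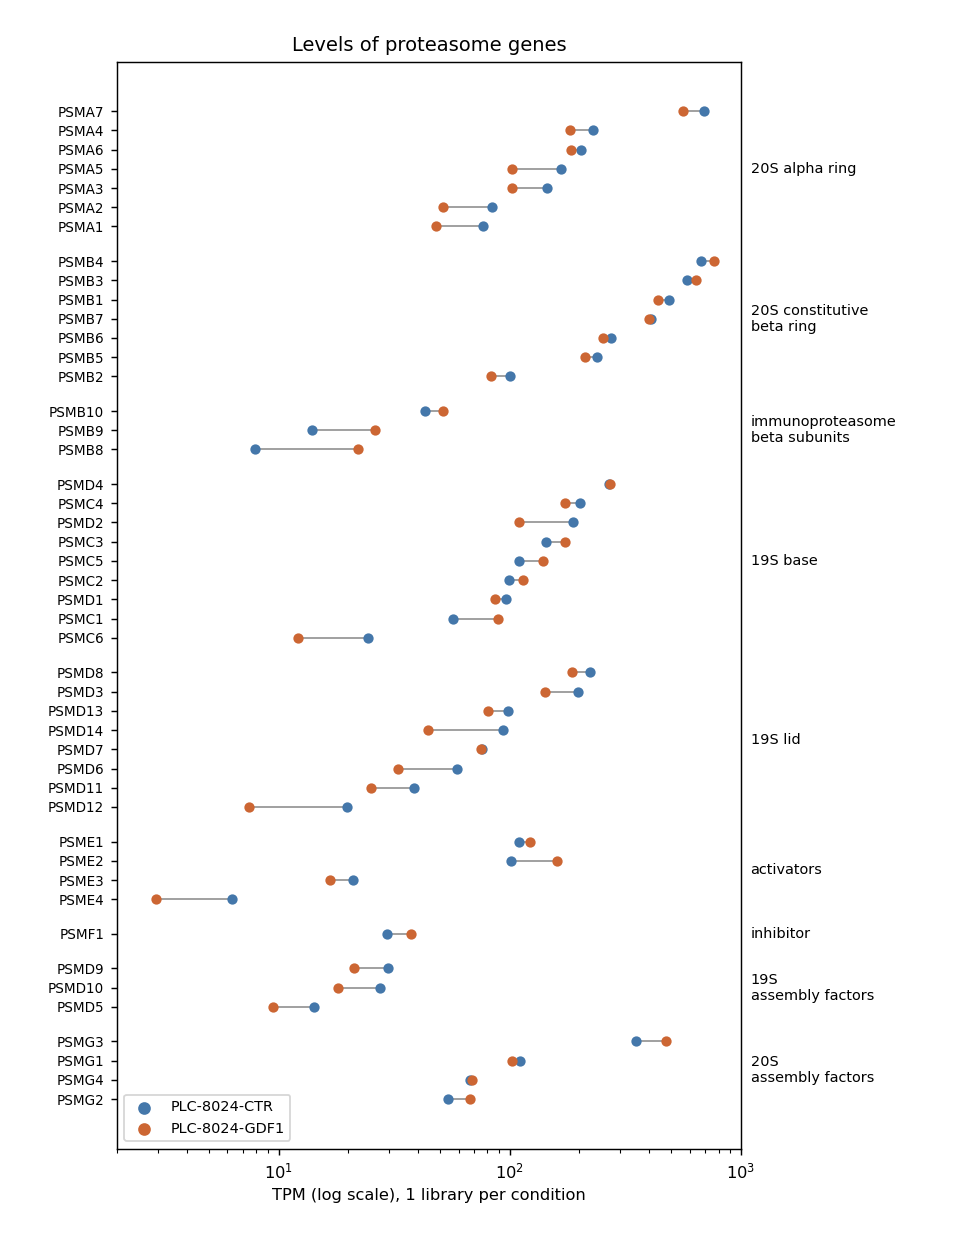
TPM on a log axis for the 46 proteasome genes with at least 1 TPM, in PLC-8024-CTR (blue) and PLC-8024-GDF1 (orange), joined by a line for each gene and ordered by the PLC-8024-CTR level within each subcomplex. PSMB8 moved from 7.91 to 22.01 TPM and PSMD12 from 19.7 to 7.43 TPM, while no constitutive beta subunit moved past 1.5-fold.

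The 19S cap was more divided than the core. The median log2 change of its 17 genes was -0.26, against -0.22 for the 14 core genes, a difference of 0.048 (core minus cap), so the medians lay close together. The cap genes spread wider, with an SD of 0.54 around their mean against 0.29, and ranged from -1.30 to 0.64. Within the cap the medians of the base and the lid differed, while their ranges overlapped (-0.95 to 0.64 and -1.30 to -0.015). The 9 base genes had a median of 0.011 with 5 above 0 and 4 below it (6 and 3 after rescaling), and the 8 lid genes had a median of -0.54 with all 8 below 0 (7 after rescaling, where PSMD7 lay above it). With the GC trend removed, 6 base genes lay above 0 and 3 below it, and 2 lid genes lay above it and 6 below. Of all genes, 63.3% lay below 0 (50.8% after rescaling, and 50.1% of protein-coding genes with the GC trend removed). Summed levels were 1189.7 and 1169 TPM in the base and 803 and 592 TPM in the lid. The median GC content of their transcripts was 48.6% and 45.7%.

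In the base, PSMC1 (RPT2), an ATPase, rose from 56.7 to 88.7 TPM (log2 change 0.64), and was the only cap gene to rise on the deposited scale. The ATPases PSMC5 (109 and 139.6 TPM, log2 0.35), PSMC3 (144 and 174 TPM, log2 0.27) and PSMC2 (99.5 and 114 TPM, log2 0.19) lay above 0 within 1.5-fold on the deposited scale, and with the GC trend removed PSMC5 and PSMC2 passed it (both 0.67). PSMC4 was listed at 202 and 174 TPM, a log2 change of -0.22. PSMC6 (RPT4) fell from 24.3 to 12.1 TPM (log2 change -0.95). The 6 ATPases form a single ring in which each occurs once, and the ratio of PSMC1 to PSMC6 was 2.34 in PLC-8024-CTR and 7.34 in PLC-8024-GDF1. The PSMC6 transcript has a GC content of 38.8% and that of PSMC1 48.6%. PSMC2 lies on the same strand as PMPCB (65.3 and 43.98 TPM), with which its span overlaps, and with it added the log2 change of PSMC2 was -0.06.

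Of the scaffold and receptor subunits of the base, PSMD2 (RPN1) fell from 188 to 109.7 TPM (log2 change -0.77). PSMD1 (RPN2) was listed at 96.2 and 85.9 TPM (-0.16). PSMD4 (RPN10), a ubiquitin receptor, was listed at 269.7 and 272 TPM, a log2 change of 0.011, the closest to 0 of the cap genes.

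In the lid, PSMD12 (RPN5; ENSG00000197170, chromosome 17 of GRCh37, 65334032 to 65362721) fell most, from 19.7 to 7.43 TPM (log2 change -1.30). PSMD14 (RPN11; ENSG00000115233, chromosome 2, 162164936 to 162268228), the enzyme that cuts ubiquitin chains off the substrate, fell from 93.0 to 44.4 TPM (log2 change -1.05). These were the only members that fell past 2-fold with 1 added to each TPM, and by the plain ratio PSMC6 and PSME4 did so too. PSMD6 (RPN7) fell from 59.1 to 32.9 TPM (-0.83) and PSMD11 (RPN6) from 38.7 to 25.2 TPM (-0.60). PSMD3 was listed at 197 and 141 TPM (-0.48), PSMD13 at 97.8 and 80.6 TPM (-0.28) and PSMD8 at 222 and 185 TPM (-0.26). PSMD7, which pairs with PSMD14 in the assembled lid, was listed at 75.6 and 74.8 TPM (-0.015). The ratio of PSMD12 to PSMD4 was 0.073 in PLC-8024-CTR and 0.027 in PLC-8024-GDF1.

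The assembly factors of the cap lay below 0 and most of those of the core above it. PSMD5, PSMD9 and PSMD10 (gankyrin), chaperones that hold parts of the base before it is complete, were listed at 14.3 and 9.45 TPM, 29.8 and 21.3 TPM, and 27.4 and 18.2 TPM. All 3 log2 changes were below 0, at -0.55, -0.47 and -0.57, and stayed so after rescaling. Of all genes, 63.3% lay below 0 (50.8% after rescaling). None passed 1.5-fold with 1 added to each TPM, while by the plain ratio PSMD5 and PSMD10 passed it (plain log2 ratio -0.59 for both) and PSMD9 did not. Of the 4 PAC chaperones that help to build the alpha ring, PSMG3 was listed at 352 and 475 TPM (log2 0.43), PSMG2 at 53.9 and 67.4 TPM (0.32), PSMG4 at 67.1 and 68.9 TPM (0.04) and PSMG1 at 111 and 102 TPM (-0.12, and 0.084 after rescaling). Their median was 0.18, while that of the alpha subunits they act on was -0.50. Of the PAC chaperones none passed 1.5-fold on the deposited scale, whereas PSMG3 passed it after rescaling (0.64) and PSMG2 with the GC trend removed (0.78).

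The changes moved with the GC content of the transcripts. Over the 46 members, Pearson's r between the log2 change and the GC content of the longest transcript was 0.50 (Spearman's rho 0.48), given as a description across genes that share both libraries. The same direction was seen over all protein-coding genes with at least 1 TPM. Divided into 5 groups by GC content, their median log2 change was -0.48 for the genes lowest in GC content and 0.11 for those highest in it. The 13 members in the lowest group, PSMD12, PSMD14, PSMD6, PSMC6, PSMA2 and PSMA5 among them, had a median of -0.57, close to that of the group. PSMG2 (0.32) and PSMC2 (0.19) in the same group lay above 0, and PSMA6 (-0.14) and PSMB1 (-0.17) lay little below it. With the trend on GC content removed, the median was -0.16 for the alpha ring, 0.25 for the beta ring, -0.26 for the lid and 0.25 for the base, with 27 of the 46 members above 0 and 19 below it. Of protein-coding genes, 49.9% then lay above 0 and 50.1% below it. Of the 10 members that fell past 1.5-fold, only PSMD12 (-0.82) and PSMD14 (-0.59) still passed it. The rises of PSMB8 (1.56) and PSMB9 (1.20) were larger after the removal, and so were those of PSMC1 (0.93) and PSME2 (0.89). The removal also centres all changes. Rescaling, which centres them without regard to GC content, gave 1.57, 1.07, 0.84 and 0.85 in the same order. The part of GC content in the changes was not tested.

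Other genes of the pathway were then described, from a list of 36 genes outside the PSM symbols, of which 35 had at least 1 TPM. Of the 35, 1 rose past 1.5-fold (2.86%) and 11 fell (31.4%), against 11.5% and 25.3% of all genes, and their median log2 change was -0.21 (-0.022 after rescaling). All 7 enzymes and factors that bind the assembled proteasome were below 0, as were 63.3% of all genes, with a median of -0.79. After rescaling, 6 of the 7 were below 0, as were 50.8% of all genes. UBLCP1, a phosphatase of the 19S cap, fell from 10.5 to 1.009 TPM (log2 change -2.51). UCHL5, a deubiquitinase of the cap, fell from 20.8 to 9.13 TPM (-1.11), the ubiquitin ligase UBE3C from 4.58 to 1.91 TPM (-0.94) and KIAA0368 (ECPAS), a proteasome adaptor, from 33.3 to 18.9 TPM (-0.79). USP14, the other cap deubiquitinase on the list, was listed at 13.6 and 11.7 TPM (-0.20). The transcripts of UBLCP1, UCHL5 and USP14 have GC contents of 35.9%, 35.2% and 38.5%. These fall in the lowest of the 5 GC groups, whose median over all protein-coding genes was -0.48. UBE3C (47.3%) and KIAA0368 (45.4%) lie higher. With the GC trend removed, 3 pathway genes were higher past 1.5-fold and 5 lower, against 14.2% and 14.4% of protein-coding genes.

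Among the subunits and assembly factors without a PSM symbol, the ubiquitin receptor ADRM1 (RPN13) was listed at 488 and 471 TPM, the lid subunit SEM1 at 154 and 183 TPM and the core maturation factor POMP at 151 and 138 TPM, all within 1.5-fold. PAAF1, a chaperone of the base, fell from 20.9 to 9.82 TPM (-1.02), and AKIRIN2, which carries proteasomes into the nucleus, from 35.1 to 20.8 TPM (-0.73). Of the 9 substrate shuttles and unfoldase factors, RAD23B and ZFAND5 fell (-0.96 and -0.83) and 8 of the 9 lay below 0 (5 after rescaling). The unfoldase VCP was listed at 287 and 261 TPM (-0.14).

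Of the transcription factors linked to proteasome genes, NFE2L1 and NFE2L2 did not change past 1.5-fold. NFE2L1 was listed at 49.0 and 56.3 TPM (log2 0.20) and NFE2L2 at 18.5 and 19.4 TPM (log2 0.06). NGLY1, which processes NFE2L1, fell from 20.6 to 11.4 TPM (-0.80), and MAFK, a small MAF partner, from 158 to 94.4 TPM (-0.74). Of the interferon-linked regulators, NLRC5, the transactivator of HLA class I genes, rose from 2.05 to 5.91 TPM (log2 change 1.18). IRF1 was listed at 4.59 and 5.13 TPM (0.13) and IRF9 at 24.02 and 36.4 TPM (0.58). IRF9 was just short of 1.5-fold with 1 added to each TPM and passed it by the plain ratio. The receptor chain IFNGR1 fell from 17.6 to 9.97 TPM (-0.77). NLRC5, IRF1 and IRF9 were the only 3 above 0 of the 8 genes of this list with at least 1 TPM. The other 5 lay below 0, where 63.3% of all genes lay, and the list median was -0.15. After rescaling, 5 lay above 0 and 3 below it, with a median of 0.041. The genes of interferon-linked transcription thus lay on both sides of 0. Whether they bear on the rises of PSMB8, PSMB9 and PSME2 was not tested.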

How the data were processed

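The authors filtered the reads with Trimmomatic 0.36, aligned them to hg19 with HISAT2 2.1.0, quantified them with StringTie 1.3.3b and deposited TPM per gene (headed MeanTPM, read here as the value of the 1 poly(A)-selected library of a condition), as the submitters' processing notes and the methods state. RefSeq annotation is named in the methods, while the tables list Ensembl identifiers. Members and lists were chosen with earlier results of these data known, and the motifs after the values were seen. The 2 tables were joined by identifier. Log2 changes used a pseudocount of 1, and genes needed at least 1 TPM in either library. A pseudocount makes the change of low genes smaller. Named were all members, GDF1, CERS1, genes overlapping a member on its strand and, of the pathway list, genes past 1.5-fold and the 3 highest in TPM. Of the pathway list, 2 genes are not reported here and enter none of its values. USP14, POMP, NFE2L1, NFE2L2, IRF1, IRF9, TAP1 and the markers were named after their values were seen. Positions (55726 of 58174 identifiers matched), gene types and GC content came from GENCODE v44 on GRCh37, and promoters from RefSeq on GRCh38.p14. The GC trend was a lowess fit (span 0.3, statsmodels 0.14.6). Rescaling used genes with at least 5 TPM. Python 3.11.15, numpy 2.4.6, pandas 2.3.3 and matplotlib 3.10.9 were used, and the calculations were tested on simulated data. The count-based test named in the methods was not run on TPM, no test across replicates was possible, and depth is unknown from TPM.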

Additional observations from a re-analysis of the deposited data

How the results depend on the processing

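No paired analysis was possible because there is only 1 library of either kind. The 10 alternatives were other pseudocounts, TPM minimums and scalings, protein-coding genes only, removal of the GC trend, pseudogenes added to their parents and overlapping members left out. The medians of the immunoproteasome subunits, the alpha ring and the lid kept their direction under all 10. With rescaled TPM, the medians reversed to 0.091 for the constitutive beta ring, 0.12 for the activators and 0.041 for all members. Past 2-fold 2 members were then higher and 1 lower, past 1.5-fold 5 were lower, and 4 pathway genes were higher. Of all genes, 7.01% were then higher and 6.75% lower past 2-fold, and 17.3% and 17.5% past 1.5-fold. With the GC trend removed, the medians reversed to 0.25 for the beta ring, 0.16 for the activators, 0.078 for the core and 0.11 for all members, and the PSMB10 to PSMB7 ratio reversed to -0.026. Members above and below 0 were then 27 and 19, those past 1.5-fold 8 and 2 and those past 2-fold 2 and 0, pathway genes past 1.5-fold numbered 3 and 5, and the inhibitor PSMF1 passed 1.5-fold (0.64). Of protein-coding genes, 49.9% and 50.1% then lay above and below 0. The shares higher and lower were 14.2% and 14.4% past 1.5-fold and 5.61% and 5.81% past 2-fold. Both settings centre all changes, by their construction. With a pseudocount of 0.1 or the plain ratio, 4 members were lower past 2-fold and 3 pathway genes higher past 1.5-fold, and the median of the 19S assembly factors passed 1.5-fold (-0.59 in both). Of all genes, 15.5% (pseudocount of 0.1) and 16.3% (plain ratio) were lower past 2-fold, and 14.3% and 14.7% higher past 1.5-fold. With CERS1 and GDF1 left out, 2 pathway genes were higher past 1.5-fold, against 11.9% of all genes. With overlapping members left out, which drops PSMC2, the base median reversed to -0.075. Of the 14 members past 1.5-fold, none changed sign under the alternatives that gave it a value (PSMA2 has none with overlapping members left out). With rescaled TPM 5 no longer passed and 1 newly passed (PSMG3), removal of the GC trend lost 8 and added 4 (PSMC2, PSMC5, PSMG2 and PSMF1), and by the plain ratio or a pseudocount of 0.1 none was lost and 2 newly passed (PSMD5 and PSMD10). TPM carries no depth, so the counting error of PSMB8 and PSME4, the lowest in PLC-8024-CTR of the 46 members with at least 1 TPM, is unknown.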
